A study of Homo sapiens with 4 samples.

Results

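The untreated states of 2 bladder cancer (BCa) cell lines, T24 and UM-UC-3, were compared gene by gene. The comparison took the 2 libraries whose labels give DMSO as the treatment, 1 of T24 and 1 of UM-UC-3, out of 4 libraries in the series. The other 2 libraries came from the same lines after 48 h in 140 µM OICR-9429, a small molecule that blocks the binding of WDR5 to MLL1, an H3K4 methyltransferase. The labels and the text of the study both give that dose, while the column headings of the treated libraries carry another number whose meaning is not given. The DMSO cells received the solvent of the inhibitor and are called negative controls. T24 was grown in RPMI-1640 and UM-UC-3 in DMEM, both with 10% FBS, so the line, its medium and its library cannot be told apart here. Each line is a single line derived from 1 tumour and grown as a culture, with no stroma, vessels or immune cells, and the tables hold 1 library for each line and condition. The methods give n = 4 for the treatment without saying what it counts. No spread between cultures of a line was therefore measured, and none of the differences is tested against one.

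Urothelium is the stratified epithelium that lines the bladder. Its outer cells carry uroplakin plaques and keratin 20, its basal cells carry keratin 5, keratin 14 and p63, and its cells are held together by E-cadherin junctions, desmosomes and claudins. Bladder cancer cells can keep this programme or lose it in favour of a mesenchymal one, in which ZEB, SNAI and TWIST factors repress junction genes. Cultured cancer lines also differ in the genes they have lost, in the growth factors they make, and in whether they express interferon-stimulated genes without added interferon.

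The values were FPKM (fragments per kilobase of gene, scaled to the library total), which allow for gene length, so levels can be compared between genes. The library totals, inferred from the FPKM values, were 28863243 reads in T24 and 28209432 in UM-UC-3. Mitochondrial genes took 2.83% and 3.94% of the reads, and 11960 and 11867 genes reached 1 FPKM. Reads worked back from FPKM gave exact Poisson intervals at 95%, printed in brackets. They cover counting error only. Genes whose reads did not come out whole have no interval.

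Of 13393 genes with at least 1 FPKM in either DMSO library, 1992 (14.9%) were at least 2-fold higher in T24 and 1811 (13.5%) at least 2-fold higher in UM-UC-3, on the scale of FPKM + 0.5. These shares are the background for every count of called genes, and "called" means past this rule of size, which is no test. The median log2 difference of 17542 genes with at least 10 reads in either library was 0.02. A narrower set was close to absent in one line. At 5 FPKM or more in T24 and 0.1 FPKM or less in UM-UC-3 stood 95 genes (1.30% of those at 5 FPKM in T24), and 145 genes (2.02%) showed the opposite. Among genes at 1 FPKM or more in both DMSO libraries, no chromosome was strongly shifted. The medians by chromosome ran from -0.27 on chromosome 10 to 0.43 on chromosome 4. Genes under 1 FPKM in one line are not in these medians.

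The treated pair of the same lines gives a second look at each line difference, under another condition. Of the genes called higher in T24 in DMSO, 982 (49.3%) were called so in OICR-9429 too, 38 were called in the opposite direction, and the others missed the rule. Of those called higher in UM-UC-3, 1075 (59.4%) were called so and 16 in the opposite direction. With limma on log2(FPKM + 0.5) of all 4 libraries and the treatment as a block, 970 of 12584 genes (7.71%) were higher in T24 and 1098 (8.73%) higher in UM-UC-3 at an adjusted p under 0.05. That fit takes the disagreement of the line difference between DMSO and OICR-9429 as its error, with 1 residual degree of freedom, and holds no repeated library of a line. Of its calls, 889 and 976 were also called by size in both pairs.

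**Figure D1:**
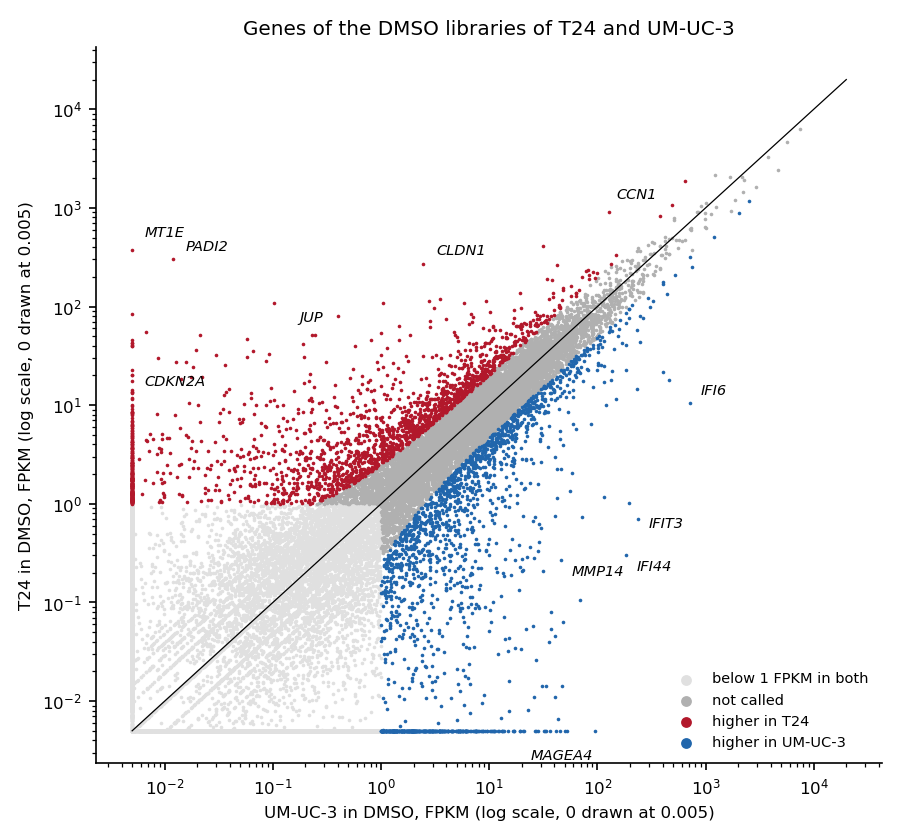
FPKM of each gene in the UM-UC-3 DMSO library (x axis) and the T24 DMSO library (y axis), both on log scales with 0 drawn at 0.005. The 1992 genes higher in T24 (red) and the 1811 higher in UM-UC-3 (blue) flank the genes not called, and points on the left and lower edges were at 0 FPKM in one line.

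The markers of urothelium were mostly low in both lines. Of 24 matched genes of urothelial differentiation, 11 reached 1 FPKM in either line, 4 called toward T24 and 1 toward UM-UC-3, with a median log2 difference of 0.52. The uroplakins that build the plaque stayed under 1 FPKM, with UPK1B at 0.81 against 0 and UPK2 at 0.157 and 0. GATA3, a factor of luminal urothelium, was at 0.0746 and 0.436 FPKM, KRT20 at 0.0375 and 0, and ELF3 at 0.106 and 0. The basal markers KRT5, KRT14 and TP63 were all at or under 0.0618 FPKM in both lines. CD44 and KRT17, also chosen as basal markers, are not reported here. Uroplakins of the plaque, KRT20, KRT5, KRT14 and TP63 were thus under 1 FPKM in both lines. The wider basal and squamous list was not silent. Of its 19 matched genes, 7 reached 1 FPKM in either line, 4 called toward T24 and 2 toward UM-UC-3. Its summed level was 292 FPKM in T24 and 114 in UM-UC-3. The treated pair repeated 4 calls toward T24 and 0 toward UM-UC-3. The simple keratins were read in both lines, KRT18 at 91.3 [89.4 to 93.3] FPKM in T24 and 56.5 [55.0 to 58.1] in UM-UC-3, and KRT8 at 71.5 [70.3 to 72.7] and 49.6 [48.7 to 50.6]. Neither was called. PPARG, a nuclear receptor of luminal cells, was at 3.12 and 1.55 FPKM, FOXA1 at 2.39 and 0.623, and KLF5 at 4.13 and 0.619. KRT80 was 8.56-fold higher in T24 (87.4 against 10.2 FPKM) and KRT7 6.46-fold (2.46 against 0.381), while TBX3, a T-box repressor, was higher in UM-UC-3 (0.0873 against 5.58).

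Markers of other cell types were near 0. None of the 9 matched haematopoietic markers reached 1 FPKM, and PTPRC, the leukocyte marker CD45, was at 0 in both lines. The fibroblast markers COL1A2 and DCN were also at 0 in both. FBLN1, a secreted matrix protein, was the 1 fibroblast-list gene that reached 1 FPKM, at 62.0 against 2.84 FPKM. Of the endothelial list, TIE1, a receptor of vessel cells, was at 0.0207 and 5.67 FPKM, and EGFL7 at 5.65 and 16.6, whereas PECAM1, CDH5, VWF and CLDN5 were all at or under 0.32 in both lines. MITF, the melanocyte factor that other cells also use, was at 4.40 and 0.261.

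A set of genes that mark the kidney tubule and its precursors was high in T24. This list was put together after the values had been seen, so its counts are a description. Of 26 matched genes, 11 reached 1 FPKM, and of these 9 were called toward T24 and 2 toward UM-UC-3. PAX8, a paired-box factor of kidney, thyroid and Müllerian epithelium, was at 46.9 [46.0 to 47.8] FPKM in T24 and 0.0575 [0.0297 to 0.1] in UM-UC-3, and at 107 and 0.171 in the treated pair. PAX2 was 7.11-fold higher (9.93 against 1.40 FPKM). So both PAX factors of the nephric lineage were read together in T24. HAVCR1, the kidney injury molecule KIM-1, was at 46.1 [44.4 to 47.8] and 0 FPKM, which is at least 932-fold higher against a floor of 3 reads. TINAG and TINAGL1, antigens of the tubular basement membrane, were at 11.8 and 0 and at 55.5 and 0.00671. Also higher in T24 were NPNT (40.1 against 0), DCDC2 (18.6 against 0.0142) and UGT2B7, a glucuronosyltransferase (6.53 against 0.0785). The list was not uniform, as MME, the brush-border peptidase neprilysin, was at 2.68 and 30.3 FPKM, and EMX2 at 0 and 1.64. LRP2, CUBN, AQP1, CDH16, ANPEP and PKHD1, which mark differentiated tubule cells, were under 0.3 FPKM in both DMSO libraries. The T24 library therefore held both PAX factors beside a bladder cancer label, with those markers of mature tubule cells near 0. By the methods both lines were authenticated by short tandem repeats, and the identity of the line was not tested here.

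**Figure D2:**
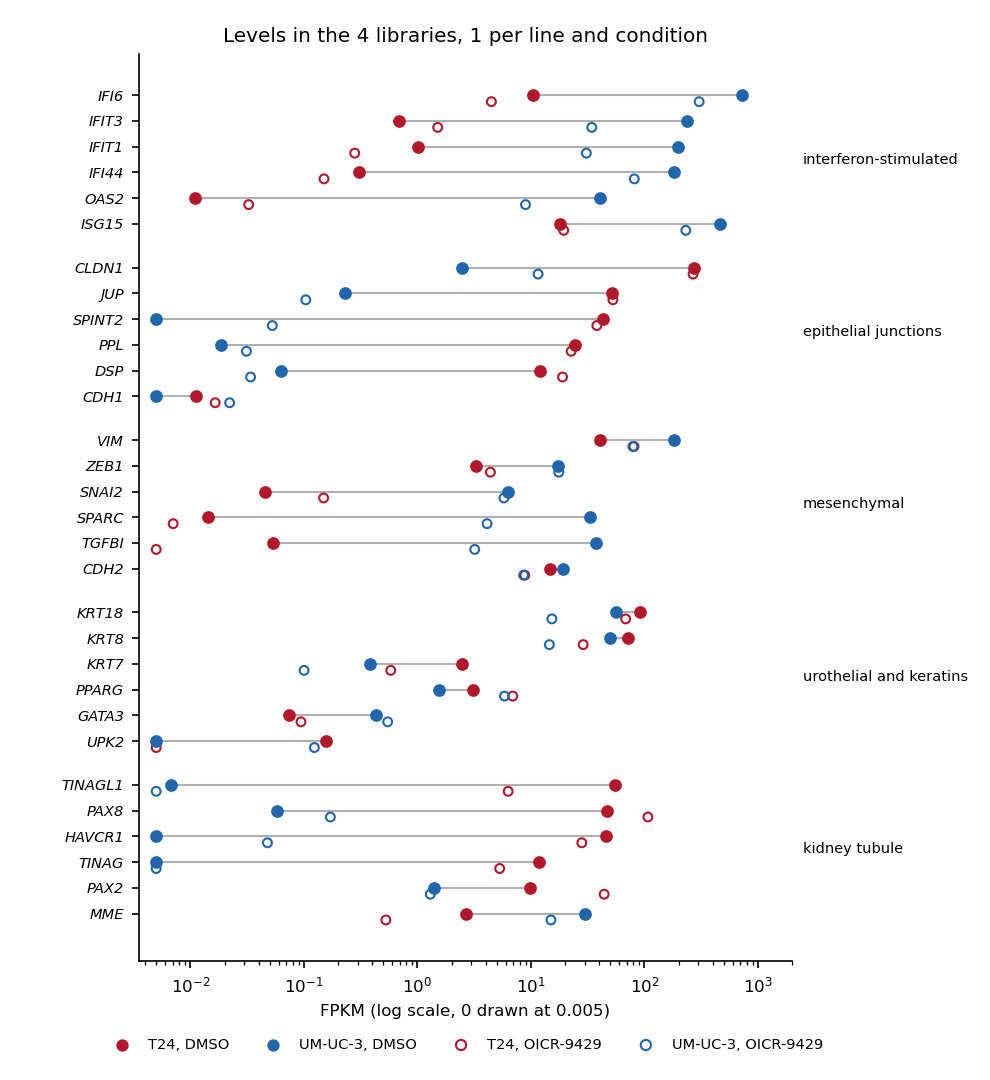
FPKM on a log scale (x axis, 0 drawn at 0.005) of 30 genes in 5 groups, in T24 (red) and UM-UC-3 (blue), filled for DMSO and open for OICR-9429, 1 library each. In DMSO the interferon-stimulated genes lie to the right in UM-UC-3, the junction genes other than CDH1 to the right in T24, and KRT8 and KRT18 close together.

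The 15 coding genes with the largest difference toward T24, among those at 10 FPKM or more there, were led by MT1E, PADI2, GDF15, LDOC1 and TINAGL1. MT1E, a metal-binding metallothionein, was at 377 [371 to 384] FPKM in T24 and 0 in UM-UC-3, at least 3734-fold higher. Its relative MT2A was read in both, at 1861 and 647 FPKM. Metallothionein copies are near-identical and can share reads. PADI2, an enzyme that turns arginine into citrulline in proteins, was at 301 [298 to 304] FPKM and 0.0118 [0.00143 to 0.0428], and PADI1 and PADI3 from the same gene family stood at 5.62 and 0 and at 7.79 and 0.6. GDF15, a stress-responsive ligand of the TGF-beta family, was at 109 and 0.102 in DMSO and at 398 and 15.7 in OICR-9429. LDOC1 was at 83.2 and 0, and CYBA, the p22 subunit of NADPH oxidase, at 51.3 and 0.0211. HAVCR1, CLDN1, SFN, SPINT2, PAX8, ACSL4, NPNT, LRRN4 and JUP made up the rest. SFN, the 14-3-3 protein of epithelia, was 200-fold higher (80.5 against 0.403 FPKM, interval of the ratio 121 to 357). All 15 were called in the same direction in the treated pair.

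Toward UM-UC-3, the 15 largest differences held 6 members of the interferon-stimulated list (IFI44, IFIT3, IFIT1, OAS2, LGALS3BP and OASL) and 9 genes outside that list. IL13RA2, a decoy receptor for interleukin 13, was at 0.107 [0.0346 to 0.249] FPKM in T24 and 68.6 [66.2 to 71.0] in UM-UC-3. IFI16, a nuclear DNA sensor, was at 0.00654 and 43.4, and CCL5, a T cell chemokine, at 0.0458 and 40.3. UCHL1, a neuronal ubiquitin hydrolase, was at 0 and 45.3, and the cancer-testis antigen MAGEA4 at 0 and 41.5. PRKCDBP (cavin-3), a coat protein of caveolae, was at 0 and 51.9. CA12, a membrane carbonic anhydrase, was at 0.0142 and 47.1, PODXL2 at 0.0634 and 48.6, and TGFBI, a TGF-beta-induced matrix protein, at 0.0532 and 37.2. Among all genes restricted to UM-UC-3 the most abundant was the long non-coding RNA LINC01029, at 0 and 95.9 [93.5 to 98.5] FPKM. All 15 kept their direction in the treated pair, CA12 at 0.0140 and 13.9 FPKM and TGFBI at 0.00436 and 3.20.

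Of 53 lists, the interferon-stimulated genes had the largest median difference toward UM-UC-3. Interferons signal through their receptors to a complex that holds STAT2 and IRF9 and binds the interferon-stimulated response element (ISRE) in front of antiviral genes. The 180 bases before the start of 5 of these genes show that element. They are from the RefSeq promoter table (GRCh38.p14), 5′ to 3′ on the gene's own strand, and capitals mark the core, GAAA and GAAA with any 2 bases between them, on either strand, with overlapping matches counted. They belong to IFIT1 (chr10:89392443-89392622, plus strand), IFIT3 (chr10:89327817-89327996, plus), IFI44 (chr1:78649609-78649788, plus), IFI6 (chr1:27672193-27672372, minus) and ISG15 (chr1:1013317-1013496, plus).
IFIT1: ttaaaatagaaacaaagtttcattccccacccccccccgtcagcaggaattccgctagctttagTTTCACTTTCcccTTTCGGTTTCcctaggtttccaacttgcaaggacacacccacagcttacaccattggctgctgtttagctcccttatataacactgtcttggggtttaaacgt
IFIT3: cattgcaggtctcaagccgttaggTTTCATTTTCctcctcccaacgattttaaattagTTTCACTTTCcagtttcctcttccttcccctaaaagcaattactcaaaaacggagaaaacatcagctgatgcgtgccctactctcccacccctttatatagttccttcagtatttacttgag
IFI44: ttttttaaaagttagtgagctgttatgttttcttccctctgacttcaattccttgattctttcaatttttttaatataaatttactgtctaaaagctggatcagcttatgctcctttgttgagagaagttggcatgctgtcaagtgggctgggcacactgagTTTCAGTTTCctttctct
IFI6: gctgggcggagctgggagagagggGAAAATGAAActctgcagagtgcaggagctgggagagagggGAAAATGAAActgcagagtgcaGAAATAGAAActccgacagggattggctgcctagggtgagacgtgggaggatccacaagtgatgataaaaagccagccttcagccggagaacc
ISG15: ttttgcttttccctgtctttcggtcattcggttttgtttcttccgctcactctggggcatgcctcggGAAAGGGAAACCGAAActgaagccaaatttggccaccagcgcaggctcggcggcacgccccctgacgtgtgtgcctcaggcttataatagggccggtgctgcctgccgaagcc
The core was found in the 300-base window (250 bases before to 50 after a start) of 27 of the 37 list genes that the promoter table holds (73.0%), and in 24 of 30 that were called higher in UM-UC-3 (80.0%). Over all 27305 genes of that table it was found in 4.38%. These are matches of letters, and the list itself was drawn up from genes known to answer to interferon.

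Of 50 interferon-stimulated genes, 46 reached 1 FPKM in either line. Of these, 41 were called higher in UM-UC-3 and none in T24, at a background of 13.5% and 14.9%. The median log2 difference was -2.83, and -2.90 with genes at 0 reads set to their bound. Their summed level was 210 FPKM in T24 and 3414 in UM-UC-3. IFI6, an antiviral membrane protein, was at 10.5 [9.30 to 11.9] FPKM in T24 and 721 [711 to 732] in UM-UC-3. IFIT3 was at 0.696 [0.521 to 0.910] and 238 [235 to 242], and IFIT1 at 1.02 [0.857 to 1.21] and 197 [195 to 200], both RNA-binding antiviral proteins. IFI44 was at 0.306 [0.181 to 0.484] and 184 [181 to 188]. These 4 genes were thus 68.5-fold to 602-fold higher in UM-UC-3. ISG15, a ubiquitin-like modifier, was at 18.1 and 464 FPKM, IFITM3, which blocks virus entry, at 21.7 and 408, and the RNA sensor OAS2 at 0.0111 and 40.5. The difference was smaller in the signal chain. STAT2 at 8.55 and 17.0 FPKM, IRF7 at 8.29 and 16.6, and IRF1 at 4.24 and 6.75 were not called, and IRF9 stood at 0.320 and 1.05. GBP3, a guanylate-binding protein, at 5.44 and 3.89 FPKM, was the 1 of those 46 that leaned to T24, without being called. MX1, a classical target, was low in both lines, at 0.0804 and 0.263 FPKM. Of the 41 calls, 32 were made in the treated pair too, where IFIT3 was at 1.51 and 34.4 FPKM, and 34 of 41 tested genes were higher in UM-UC-3 by limma (for IFI6, log2 difference -5.98, SE 0.22, adjusted p = 0.0012).

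Receptors and ligands of this pathway were set beside it. The type I receptor chains IFNAR1 and IFNAR2 were read in both lines, at 15.1 and 13 FPKM and at 3.78 and 2.34. IFNB1, the gene of interferon beta, was at 0 in T24 and 1.86 [1.35 to 2.48] in UM-UC-3 (45 reads), and at 0.0397 and 2.63 in OICR-9429. Of the nucleic acid sensing list, 15 genes reached 1 FPKM, with 3 called higher in T24, 4 in UM-UC-3 and a median of -0.10. STING1 (TMEM173), the adaptor that passes on the signal of cytosolic DNA, was at 0 in T24 and 6.34 [5.88 to 6.84] FPKM in UM-UC-3, and was under 1 FPKM in both treated libraries. CGAS, the enzyme before it, was at 12.9 and 11.4, TBK1 at 11.3 and 11, and MAVS, the adaptor of RNA sensing, at 14.9 and 25.9. IRF3, the factor that TBK1 activates, was higher in T24, at 17.7 and 7.29. Expression of DNA-sensing genes thus differed at IFI16 and STING1 but was called at neither CGAS nor TBK1.

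The antigen presentation genes called in DMSO were higher in UM-UC-3. Of 18 MHC genes at 1 FPKM, 8 were called higher in UM-UC-3 and none in T24, with a median of -0.66 (-0.44 over all members). The treated pair repeated 4 of the 8, and limma called 4 of 17 toward UM-UC-3 and 2 toward T24. The class I heavy chain HLA-C was 15.9-fold higher in UM-UC-3 (14.6 [13.8 to 15.5] against 232 [229 to 236] FPKM) and HLA-B 13.6-fold (6.46 against 87.6). HLA genes are alike and vary between people, so reads can be lost or shared among them. B2M, the light chain, was at 69.9 and 90.3, the peptide transporter TAP1 at 10.3 and 30.0, the immunoproteasome subunit PSMB9 at 2.35 and 8.78, and NLRC5, the activator of class I genes, at 0.302 and 4.40. The class I genes were therefore uneven, with HLA-B and HLA-C apart from B2M.

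Checkpoint and NK cell ligands gave a different picture, with 5 of 16 called higher in T24 and 1 in UM-UC-3. The treated pair repeated 2 of the calls toward T24 and 0 toward UM-UC-3, and limma called 2 of 14 toward T24 and 0 toward UM-UC-3. MICB, a ligand of the NK receptor NKG2D, was 5.72-fold higher in T24 (62.5 against 10.9 FPKM), and ULBP1, another such ligand, was at 5.55 and 0.982. NT5E (CD73), which makes adenosine, was 2.71-fold higher in UM-UC-3 (67.5 against 183). CD274, the gene of PD-L1, was at 1.38 [1.18 to 1.61] and 1.34 [1.14 to 1.57] FPKM, a ratio of 1.03 (0.825 to 1.30). In the treated pair its log2 difference was -1.19, toward UM-UC-3. Chemokines and cytokines divided between the lines, with 7 of 18 higher in T24 and 6 in UM-UC-3. CCL2, the monocyte chemokine, was at 0 and 32.0 FPKM, CSF1, the macrophage growth factor, at 1.59 and 28.3, and IL11 at 1.41 and 14.2. TNF was at 8.56 and 0.190, LIF, a ligand of the gp130 receptor, at 76.8 and 16.9, and CXCL8, the neutrophil chemokine, at 5.53 and 3.87 without a call. So UM-UC-3 held the CCL and CSF1 ligands of monocytes and T cells, and T24 held TNF and LIF. Among 31 cytokine and death receptors only 6 were called on each side, with IL13RA1 at 18.2 and 2.33 FPKM against IL13RA2 at 0.107 and 68.6. LTBR, the lymphotoxin receptor, was at 0.0110 and 25.8.

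Of the same 53 lists, the epithelial junction genes had the largest median difference toward T24 among genes with at least 10 reads in either library. E-box letters CAGGTG, which ZEB and SNAI factors are known to bind, are shown in the 180 bases before the start of JUP (chr17:41785977-41786156, minus strand) and DSP (chr6:7541491-7541670, plus strand), again from RefSeq on GRCh38.p14, with capitals for CAGGTG on either strand.
JUP: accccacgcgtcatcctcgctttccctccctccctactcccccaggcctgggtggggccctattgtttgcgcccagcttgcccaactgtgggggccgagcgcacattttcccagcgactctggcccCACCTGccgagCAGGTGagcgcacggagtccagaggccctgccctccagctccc
DSP: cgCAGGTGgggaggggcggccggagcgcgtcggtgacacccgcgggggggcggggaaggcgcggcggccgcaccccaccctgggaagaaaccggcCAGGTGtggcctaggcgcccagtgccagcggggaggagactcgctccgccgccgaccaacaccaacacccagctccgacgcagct
JUP, like IFIT3 and IFI44, has 2 annotated starts in that table, and a start whose window holds the letters was printed. They were found in the windows of 16 of 23 junction genes in the table (69.6%) and of 24.1% of all its genes. Among the junction genes called higher in T24 they were found in 6 of 10 (60.0%).

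Of 43 matched junction genes, 22 reached 1 FPKM, of which 18 were called toward T24 and 3 toward UM-UC-3. The median log2 difference was 3.06 over genes with at least 10 reads and 0.37 over all 43 members, of which 21 were under 1 FPKM in both lines. The summed level was 588 FPKM in T24 and 40.4 in UM-UC-3. CLDN1, a tight junction claudin, was at 273 [270 to 276] and 2.47 [2.17 to 2.79] FPKM, 111-fold higher in T24. JUP (plakoglobin) and DSP (desmoplakin), which link desmosomes to keratin, were at 52.1 [50.9 to 53.3] and 0.230 [0.157 to 0.324] and at 12 and 0.0632, and PPL (periplakin) was at 24.3 and 0.0184. SPINT2, an inhibitor of surface serine proteases, was at 43.0 and 0, and LSR, a tricellular junction protein, at 39.6 and 0.571. F11R (JAM-A) was at 5.92 and 0.0140 and PKP2 at 8.23 and 0. Parts of tight junctions and of desmosomes were thus read in T24 and hardly in UM-UC-3. The exceptions on the side of UM-UC-3 were NECTIN1 (0.301 against 9.92 FPKM), PKP3 (0.366 against 5.42) and CD24 (0.134 against 1.21). T24 did not express the whole programme. CDH1, the gene of E-cadherin, gave 2 reads in T24 against 0 in UM-UC-3, and CLDN7, CLDN4, ESRP1 and ST14 were all under 0.3 FPKM in both DMSO libraries. Of the 18 calls, 17 were repeated in OICR-9429, and limma called 17 of 21 tested genes higher in T24 and 1 in UM-UC-3 (for JUP, log2 difference 6.32, SE 0.32, adjusted p = 0.0017).

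The mesenchymal list went the other way, with 10 of 21 genes called higher in UM-UC-3 and 1 in T24, and a median of -0.40. It holds repressors of epithelial genes, of which 4 were called higher in UM-UC-3. SNAI1 was at 0.226 [0.113 to 0.404] and 8.37 [7.57 to 9.23] FPKM, SNAI2 at 0.0455 and 6.24, TWIST1 at 0 and 2.44, and ZEB1 at 3.27 [3.05 to 3.50] and 17.3 [16.8 to 17.9]. VIM, the mesenchymal intermediate filament, was 4.52-fold higher (40.4 against 183), SPARC, a collagen-binding matricellular protein, was at 0.0143 and 33.2, and THY1 at 0 and 4.98. CDH2 (N-cadherin) was at 14.7 and 19.1 FPKM and AXL at 80.9 and 116, and neither was called. FOXC2, a factor of mesenchyme, was the 1 gene higher in T24, at 19 and 2.59. The treated pair kept 7 of the 10 calls. In it VIM stood at 81.1 and 79.3 FPKM, whereas ZEB1 was at 4.41 and 17.6.

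**Figure D3:**
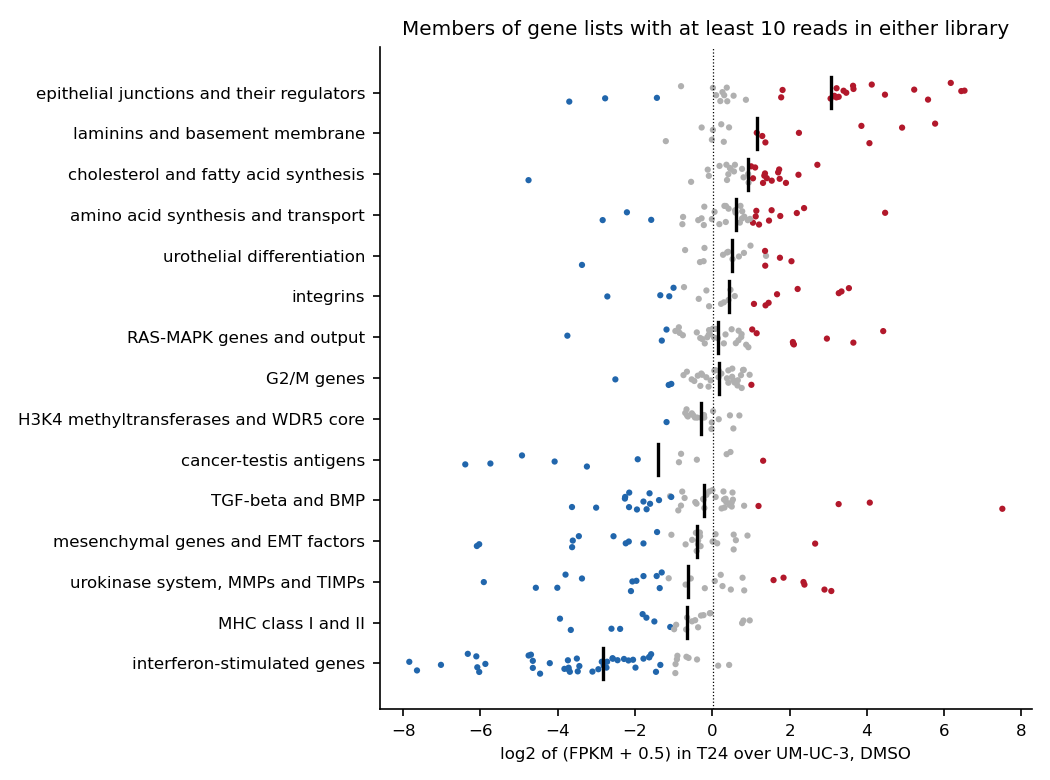
Log2 of (FPKM + 0.5) in T24 over UM-UC-3 in DMSO (x axis) for the members of 15 lists with at least 10 reads in either library, red where called higher in T24, blue where called higher in UM-UC-3 and grey otherwise. Black bars are list medians, from -2.83 for the interferon-stimulated genes to 3.06 for the junction genes, and the dotted line is the median of all genes, 0.02.

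Basement membrane genes were on the side of T24. Of 10 laminin and basement membrane genes, 8 were called higher in T24 and none in UM-UC-3, with a median of 1.15 (0.43 over all members), and limma called 8 of 10. LAMB3, a laminin chain of epithelia, was 34.2-fold higher (121 against 3.52 FPKM), LAMA5 18.7-fold (74.0 against 3.95), and NID1 (nidogen) was at 31.2 and 1.69. PXDN, the peroxidase that cross-links collagen IV, was at 27.4 and 0.0126, and at 1.21 in the treated T24 library. LAMB2 and HSPG2 (perlecan) did not differ by the rule, at 20.8 and 17.6 and at 17.7 and 17.5. The network collagens followed, with COL4A1 at 41.4 and 7.07, COL4A2 at 63.7 and 10.8 and COL18A1, the source of endostatin, at 95.6 and 3.10, while COL6A1 (1.95 against 9.24), COL6A2 (1.80 against 17.9), COL5A1 (0 against 1.63) and COL17A1 (0.144 against 6.20) were higher in UM-UC-3. Over all 12 collagens the counts were 6 and 5.

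The receptors for these proteins differed by chain. ITGA6 and ITGB4, which form the laminin receptor of hemidesmosomes, were at 84.5 [83.2 to 85.8] and 6.84 [6.46 to 7.23] FPKM and at 4.68 and 0.0105, and ITGA3 at 200.3 and 72.6. ITGA4, ITGA2 and ITGA5, which bind fibronectin or collagen, were higher in UM-UC-3, at 0 and 2.79, 4.96 and 13.4, and 11.8 and 24.1. The common partner ITGB1 was at 207 and 265 and not called. In all, 8 of 14 integrins were called toward T24 and 4 toward UM-UC-3. The treated pair repeated 6 of the former and 0 of the latter, with ITGA2 at 5.93 and 4.02, and limma called 6 of 11 toward T24 and 0 toward UM-UC-3. Other matrix genes were even, with 9 of 25 and 10 of 25. CCN1 (CYR61), a matricellular target of YAP and SRF, reached 917 [910 to 924] FPKM in T24 and 127 [124 to 129] in UM-UC-3, and CCN2 (CTGF) 265 and 42.8, and HAS3, a hyaluronan synthase, was at 109 and 1.04. TGM2, a transglutaminase that cross-links matrix, was 8.04-fold higher in UM-UC-3 (22.7 against 183).

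Of 21 genes of the urokinase system, MMP and TIMP list, which holds proteases and inhibitors, 12 were called higher in UM-UC-3 and 6 in T24. The median was -0.62, and -0.19 over all members. MMP14, the membrane-anchored metalloproteinase, was 169-fold higher (0.272 [0.189 to 0.378] against 46.0 [44.8 to 47.2] FPKM). MMP2, which MMP14 activates, was at 0 and 11.3, which is at least 539-fold, and TIMP2, the inhibitor that takes part in this activation, at 3.09 and 14.9. Enzyme, activator and inhibitor were thus read together in UM-UC-3. MMP9 was at 0.0148 and 6.66, MMP19 at 0 and 7.56, CTSB at 13.6 and 54.7, and PLAU, the gene of urokinase, at 76.8 and 265. PLAT, the other plasminogen activator, was higher in T24, at 8.34 and 0.546, as were ADAMTS1 (36.6 against 6.61) and CTSV (7.98 against 0.634). Of the 12 calls toward UM-UC-3, 6 were repeated in the treated pair, and of the 6 toward T24, 4 were. PLAU turned there, at 44.9 FPKM in T24 and 18.1 in UM-UC-3. Over both conditions limma called 6 of 18 genes toward UM-UC-3 and 4 toward T24.

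Growth factor receptors and ligands differed one by one rather than as a list. Of 23 receptor tyrosine kinases, 7 were called toward T24 and 8 toward UM-UC-3, and of 29 ligands 9 and 8. EGFR was 3.70-fold higher in T24 (49.0 against 13.2 FPKM), ERBB2 was at 14.2 and 5.2, ERBB3 at 5.62 and 0.164, MST1R, the receptor of macrophage-stimulating protein, at 8.11 and 0.0675, and FGFR4 at 8.47 and 1.57. FGFR1 (2.54 against 10.0), EPHB2 (0.897 against 11.6), IGF1R (0.557 against 2.99), DDR2 (0.119 against 2.41) and ROR2 (0.0179 against 2.75) were higher in UM-UC-3, while EPHA2, AXL and MET were at 40 FPKM or more in both lines and not called. The ERBB receptors were therefore on the side of T24. Their ligands split, with AREG (amphiregulin) at 10.1 and 0.0860 and TGFA at 7.69 and 0.693 against EREG (epiregulin) at 0.188 and 15.9, and HBEGF at 29.7 and 23.2 without a call. PDGFB was at 35.1 [33.9 to 36.2] and 0.0660 [0.0265 to 0.136] and FGF5 at 32.3 and 0.999, both higher in T24. The vessel factors VEGFC (2.08 against 16.7), ANGPT1 (0 against 3.92) and EFNB2 (5.22 against 29.9) were higher in UM-UC-3, and VEGFA in T24, at 8.53 and 3.98.

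Downstream of these receptors, 8 of 36 RAS-MAPK genes were called higher in T24 and 3 in UM-UC-3, with a median of 0.14. SPRY2 and SPRY4, feedback inhibitors of the pathway, were at 47.4 and 10.7 FPKM and at 48.5 and 10.8, ETV4 at 23.9 and 5.25 and ETV1 at 8.60 and 0.225. DUSP4, an ERK phosphatase, was at 0.0239 and 6.55. EGR1, an immediate early gene, was 25-fold higher in T24 in DMSO (71.3 against 2.85) but stood at 30.3 and 20.4 in OICR-9429. Of 13 AP-1 and EGR factors, 3 were called higher in T24 and 3 in UM-UC-3. The median was 0.29, and 0.15 over all members. FOSL1 was at 177 and 403 FPKM, JUN at 56.0 and 137 and FOSL2 at 8.72 and 32.8, with JUND at 37.4 and 10.1 and ATF3 at 18.4 and 1.34. None of these 6 AP-1 and EGR calls was made in the treated pair. YAP and TEAD targets gave 4 and 4 of 26, so CCN1 and CCN2 did not speak for that list.

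The TGF-beta and BMP list leaned to UM-UC-3 with 13 of 36 genes, against 4 in T24, and a median of -0.22. ID3, an inhibitor of bHLH factors that BMP signals induce, was 12.9-fold higher in UM-UC-3 (11.5 [10.6 to 12.5] against 148 [145 to 152] FPKM), ID1 was at 43.0 and 168, ID2 at 2.26 and 12.7 and SMAD6, the inhibitory SMAD, at 0.235 and 5.4. In the treated pair ID1 was at 130 and 155 and ID2 at 15.3 and 14.3, neither called, while ID3 was at 26.8 and 86.5. The ligands GDF15, INHBA (8.07 against 0.00854) and TGFB2 (4.39 against 0.00688) were higher in T24, and TGFB1 was at 67.4 and 79.5. Of the list, 8 of the 13 calls toward UM-UC-3 and 3 of the 4 toward T24 were repeated in the treated pair. In the WNT list 7 of 28 were higher in T24 and 8 in UM-UC-3. T24 had the receptors FZD6 (30.1 against 0.00872) and LGR4 (27.2 against 0.313), and UM-UC-3 had WNT10B (0.198 against 13.4), WNT7B (1.48 against 11.2) and the secreted inhibitor SFRP1 (0 against 7.97). CTNNB1 was at 60.6 and 40.5. The NOTCH list gave 4 and 5 of 20, with MAML3 (3.45 against 0.0253) and MAML2 (0.258 against 3.29), co-activators of the same complex, on opposite sides.

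A stretch of neighbouring genes around the tumour suppressor CDKN2A had no reads in UM-UC-3. On chromosome 9, CDKN2A, which encodes the p16 inhibitor of CDK4 and ARF, was at 22.9 [22.0 to 23.7] FPKM in T24 against 0 in UM-UC-3, at least 931-fold higher. CDKN2B (p15) was at 2.01 and 0, and MTAP, an enzyme of methionine salvage, at 4.22 and 0. The expressed neighbours on both sides were read in UM-UC-3, with KLHL9 at 9.44 and 17.7, TUSC1 at 8.14 and 16.2 and PLAA at 12.3 and 25.4 FPKM. In OICR-9429 the UM-UC-3 library was again at 0 for CDKN2A, CDKN2B and MTAP. The silent stretch thus had borders within a few genes, and copy number was not measured in these files.

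**Figure D4:**
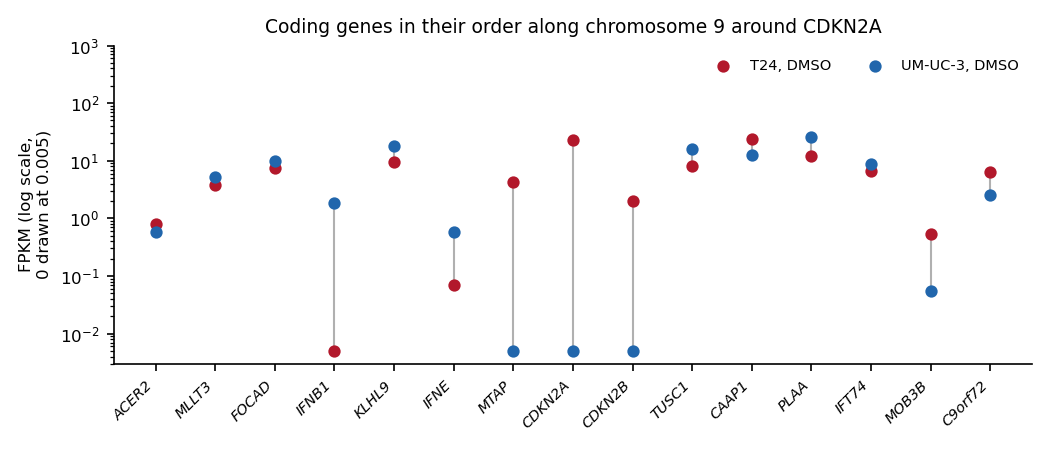
FPKM in DMSO on a log scale (y axis, 0 drawn at 0.005) of coding genes with at least 0.5 FPKM in either line, in their order along chromosome 9, T24 red and UM-UC-3 blue. MTAP, CDKN2A and CDKN2B are at 0 in UM-UC-3 between neighbours that were read there.

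A scan of all coding genes at 1 FPKM or more in either line (10816 genes in genome order) was made after these values had been seen. It found 4 stretches of at least 3 neighbours at 0.1 FPKM or less in UM-UC-3 and 2 in T24. Beside the stretch at CDKN2A, UM-UC-3 was at 0 for NXT2, ACSL4 (40.6 [39.7 to 41.6] FPKM in T24), TMEM164 and AMMECR1 on chromosome X, and for ARHGEF35, OR2A7, CTAGE8 and ARHGEF5 on chromosome 7, a region of near-identical copies that share reads. ACSL4 loads arachidonate into phospholipids. T24 was at or near 0 for MAGEA4, GABRE, MAGEA10 and GABRA3 on chromosome X, and for overlapping gene models around HBE1 on chromosome 11.

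Single genes used by most cells were also at or near 0 in one line. These were picked after their values were seen. In T24, STAT6, the signal transducer of interleukins 4 and 13, was at 0.0142 FPKM against 30.6 in UM-UC-3. The reverse held for ETFA, which carries electrons from mitochondrial dehydrogenases, at 17.7 FPKM in T24 against 0 in UM-UC-3, and for the peroxiredoxin PRDX2, at 10.6 and 0.0169. The treated libraries repeated these differences, with STAT6 at 0.0187 and 20.3, ETFA at 10.8 and 0 and PRDX2 at 8.40 and 0.0327.

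Of 35 genes of cell cycle and damage control, 13 were called toward T24 and 5 toward UM-UC-3, with a median of 0.17. The treated pair repeated 5 and 4 of them. CDKN1A, which encodes the p21 inhibitor, was 2.66-fold higher in T24 (74.3 against 27.9 FPKM). The cyclin-dependent kinase CDK4 was at 21.8 and 64.4 and its inhibitor CDKN2C at 12.4 and 31.0. E2F1 (26.6 and 29.5) and CCND1 (128 and 159) were not called, unlike CDK4 and CDKN2C. In the treated pair CDKN1A was at 70.4 and 59.4.

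Positional identity genes of the HOX clusters were called in both directions. Calls toward T24 and UM-UC-3 numbered 3 and 0 of 5 in HOXA, 0 and 2 of 8 in HOXB, 1 and 4 of 5 in HOXC and 2 and 2 of 5 in HOXD. HOXC9 was at 6.75 [6.04 to 7.52] and 0.0211 [0.000535 to 0.118] FPKM, while its neighbours HOXC8 (0.348 against 4.79), HOXC4 (0.178 against 4.45), HOXC13 (0.0429 against 2.14) and HOXC6 (0.108 against 1.24) were higher in UM-UC-3. In the HOXD cluster HOXD10 was at 1.78 and 0 and HOXD13 at 0 and 3.54. HOXA9 was at 2.46 and 0, and HOXB9 at 1.96 and 8.79, and 57.7 in treated UM-UC-3 cells. Of the other lineage factors, 11 of 45 were called higher in T24 and 12 in UM-UC-3. T24 had PAX8, TFAP2C (11.8 against 0.224), ZIC2 (8.21 against 0.514) and SIM2 (3.79 against 0.199). UM-UC-3 had PITX1 (2.23 against 42.2), FOXF1 (0 against 4.15), FOXF2 (0.222 against 7.88) and GATA2 (2.69 against 16.3), factors of limb, gut mesenchyme and blood or urogenital development. SOX9 was at 36.8 and 26 and not called. Of the nuclear receptors, NR3C1, the glucocorticoid receptor, was at 4.60 and 17.6 and VDR at 0.427 and 4.24.

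Cancer-testis antigens, which are usually read in the germline alone, were on the side of UM-UC-3. Only 19 of 42 entries were matched to the tables, and 7 reached 1 FPKM, of which 6 were called higher in UM-UC-3 and 1 in T24. MAGEA6 was at 1.34 and 55.4 FPKM, MAGEA10 at 0 and 26.3 and MAGEA3 at 0.756 and 20.7. MAGEA3 and MAGEA6 are close copies, so their division is uncertain. The list median was -1.40, -2.75 with genes at 0 reads set to their bound, and -0.18 over all members.

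Metabolic genes separated in sterol synthesis above all. Of 30 cholesterol and fatty acid genes, 14 were called higher in T24 and 1 toward UM-UC-3, with a median of 0.93. MVD, the mevalonate diphosphate decarboxylase, was 6.90-fold higher in T24 (60.6 [59.3 to 61.9] against 8.78 [8.28 to 9.30] FPKM), INSIG1, a regulator of sterol synthesis, was at 88.1 and 26.7, and FASN, the fatty acid synthase, at 227 and 77.7. SREBF2, the factor that drives these genes, was at 49.4 and 43.3. In OICR-9429, 5 of the 14 calls were repeated and INSIG1 was at 123 and 65.6, a log2 difference of 0.90 that missed the rule. Over both conditions limma called 9 of 30 higher in T24 and 1 in UM-UC-3. T24 and UM-UC-3 grew in different media, and the part of the medium in these values was not tested. Amino acid genes also leaned to T24 in DMSO, with 10 of 33 higher in T24, 3 in UM-UC-3 and a median of 0.60. CHAC1, an enzyme of glutathione breakdown that follows ATF4, was 27.9-fold higher in T24 (51.5 against 1.84), SLC7A11, the cystine transporter, was at 17.4 and 3.44, and ASNS at 72.1 and 32.8. Of those 10, 2 were repeated in the treated pair, while all 3 calls toward UM-UC-3 were. Over both conditions limma called 2 of 33 toward T24 and 4 toward UM-UC-3, so the lean to T24 was not kept. In the treated pair CHAC1 was at 31.3 and 43.1 and ASNS at 65.7 and 123. No test compared the pairs or the lists.

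**Figure D5:**
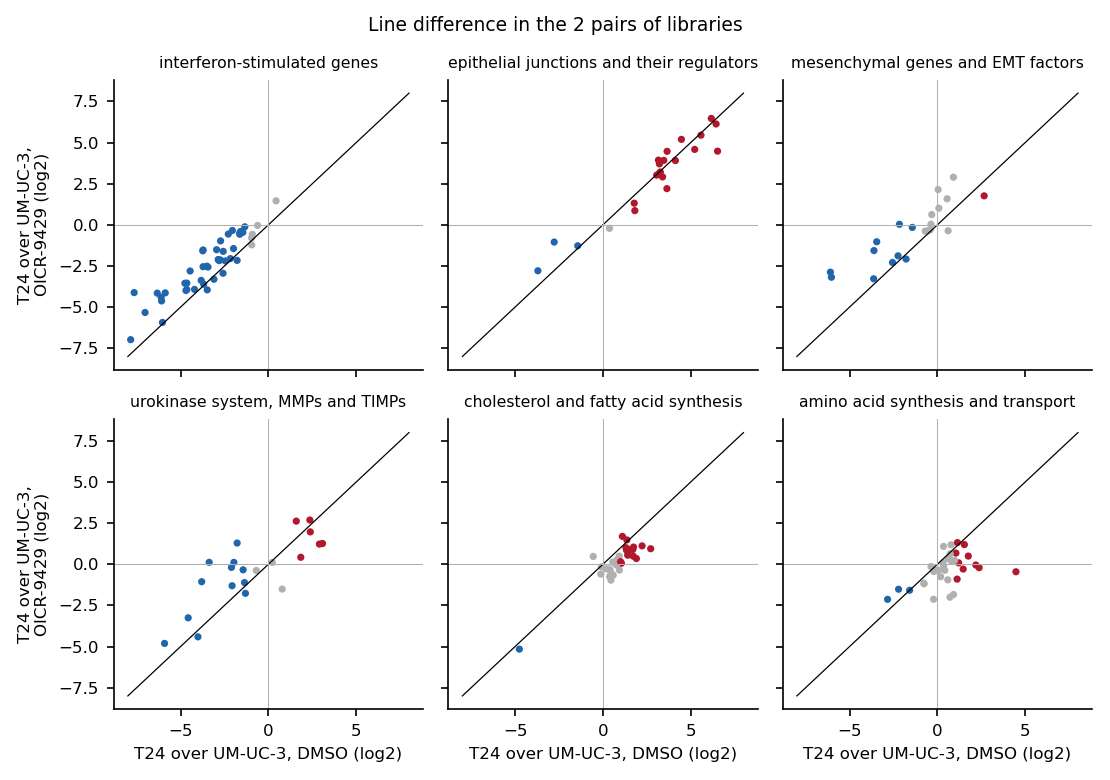
Log2 of (FPKM + 0.5) in T24 over UM-UC-3 in the DMSO pair (x axis) and in the OICR-9429 pair (y axis) for members of 6 lists at 1 FPKM or more in either DMSO library, coloured by the DMSO call (red higher in T24, blue higher in UM-UC-3, grey not called). Junction genes lie near the line of equality, and most sterol and amino acid genes lie below it, with 5 of 14 and 2 of 10 calls toward T24 repeated.

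In detoxification, 12 of 36 genes were higher in T24 and 7 in UM-UC-3. NNMT, which methylates nicotinamide, was at 0.439 and 16.4 FPKM and the retinal dehydrogenase ALDH1A1 at 0.195 and 6.89, while its relative ALDH1A3 (2.06 against 0) and the retinoic acid hydroxylase CYP26B1 (6.58 against 0.0495) were read in T24. Glycolysis genes were mostly not called (22 of 31), with ENO1 at 898 and 829 FPKM. The hexokinases traded places, with HK1 at 32.7 and 5.32 and HK2 at 6.54 and 22.7, and EPAS1, the hypoxia factor HIF-2 alpha, was at 0.569 and 29.8. Among vasoactive and prostanoid genes T24 had EDN1, the gene of endothelin 1 (19.2 [18.1 to 20.4] against 0.0174), NMU (25.6 against 0.0364) and PTGS2, the gene of COX-2 (4.07 against 0). EDN1 stood at 0.252 and NMU at 2.06 in treated T24 cells. UM-UC-3 had the receptors F2RL1 (2.24 against 45.8), BDKRB1 (0 against 13.6) and NTSR1 (2.44 against 16.6). Over this list, 6 of 15 genes were called toward T24 and 5 toward UM-UC-3. Axon guidance genes divided as 10 and 8 of 24, with SEMA3C at 96.7 and 19.7, SLIT2 at 6.10 and 0 and SEMA3F at 0.337 and 9.34. ANXA6 was at 0.753 and 40.8 and S100A6 at 137 and 19.4.

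Lists of basic cell functions held few called genes. Of 34 G2/M genes, 1 was called toward T24 and 3 toward UM-UC-3, of which UBE2C, the ubiquitin-conjugating enzyme of mitotic exit, was 5.75-fold higher in UM-UC-3 (43.4 against 250 FPKM). Of 19 genes of H3K4 methylation, the machinery that OICR-9429 addresses, 1 was called, KMT2D, at 8.48 and 19.9. WDR5, the target of the inhibitor, was at 33.7 [32.6 to 34.9] FPKM in T24 and 44.4 [43.1 to 45.7] in UM-UC-3, a ratio of 1.32 (1.26 to 1.38) toward UM-UC-3, which lay under the 2-fold rule. Of 20 reference genes, 3 were called, all higher in UM-UC-3, with TFRC at 19.4 and 63.8, so a gene used for normalization can pass the rule between these lines. ACTB was at 2168 and 1228, and GAPDH at 1052 and 908, neither of them called.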

How the data were processed

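RNA-seq of 4 libraries was used, 1 for each line and treatment. The authors deposited FPKM values per gene for 31319 genes, made from hg19 alignments. HISAT2 2.1.0, HTSeq 0.6.1 and bcl2fastq 2.19.1 are the tools in the submitters' processing notes. Whether the counting used strand is not given in the sources used here. The library totals were inferred from the FPKM values. Reads were worked back as FPKM times GENCODE 29 exon length times the library total. This gave whole numbers within 1e-06 for 29029 genes (92.7%). The worked-back reads of the DMSO libraries summed to 29575072 in T24 and 28925968 in UM-UC-3, above the inferred totals. These reads were used for the counting intervals, the minimum of reads for medians, the floor of reads for folds and the exact binomial test, among other steps. The rule of size and limma used FPKM.

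A gene was called at a 2-fold difference in FPKM + 0.5 with 1 FPKM in either library. A fold against 0 reads used a floor of 3 reads. List medians cover genes with 10 reads in either library. For each direction the 15 coding genes of largest difference at 10 FPKM or more, the 10 most abundant line-restricted genes and the leading members of each list were named. Other genes were named after their values were seen. The members and gene lists were chosen with earlier results of these data known, and 4 lists (renal tubule, metallothionein, GABA and glutamate receptor, peptidylarginine deiminase) after their values were seen. limma 3.58.1 (trend, Benjamini-Hochberg) in R 4.3.3 was fitted across all genes. Python 3.11.15 with scipy 1.17.1 gave the intervals. On simulated data the rule of size recovered 98% of 4-fold and 100% of 16-fold changes and called 294 of 12548 unchanged genes, and limma called 69 of 12220. In that simulation the changed genes were drawn among genes with many reads. The spread between libraries was assumed, and no treatment effect was put in. These figures are therefore not error rates of the calls made here. Genes of the Y chromosome and XIST are not named, and some other genes and 1 stretch of neighbours are not reported here.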

Additional observations from a re-analysis of the deposited data

Results flagged for a closer look

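For 6 genes of the lists, the line difference in OICR-9429 was opposite to that in DMSO, each past the rule of size. The values are log2 of (FPKM + 0.5) in T24 over UM-UC-3, and with 1 library for each line and treatment the difference between the pairs was not tested. TGM2 was at -2.98 in DMSO and 1.25 in OICR-9429, with UM-UC-3 at 183 and 5.94 FPKM and T24 at 22.7 and 14.8. PLAU was at -1.78 and 1.29. SMAD3, a signal carrier of TGF-beta, was at -1.06 and 1.33. These 3 genes were lower in treated than in DMSO UM-UC-3 cells. SESN2, a stress-induced sestrin, was at 1.74 and -1.10, with UM-UC-3 at 9.33 and 88.5 FPKM. HES7 was at 1.03 and -1.05, and ESAM, an endothelial adhesion molecule, at 1.09 and -1.15 from levels under 2 FPKM in all 4 libraries.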

How the results depend on the processing

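The tables used here hold 1 library for each line and condition, so leaving out a replicate was not possible, and the counts by size move with the thresholds. Genes called higher in T24 and UM-UC-3 numbered 1011 and 911 at 5 FPKM or more and 661 and 693 at a 4-fold difference. An exact binomial test on the worked-back reads, which covers counting error only, called 7047 and 6801. Line-restricted genes numbered 37 and 52 at 10 against 0.05 FPKM and 243 and 306 at 2 against 0.1 FPKM. Calls toward T24 were 52.4% of all calls, and 49.8% with TMM and 48.6% with median-ratio scaling. The medians of all 57 lists moved by less than 0.1 under both scalings. With no minimum of reads 28 of them moved, among them junctions from 3.06 to 0.37, laminins from 1.15 to 0.43, cancer-testis antigens from -1.40 to -0.18 and keratins from 0.61 to -0.04, while the interferon-stimulated genes stayed at -2.83. limma called 1348 and 1198 genes with TMM scaling, against 970 and 1098, so the larger side turned. It called 450 and 466 genes without the treatment as a block, and 0 and 0 with no minimum of FPKM, where 2190 and 2782 genes had an unadjusted p under 0.05. No paired analysis was possible because each line and condition had 1 library with no replicate number to pair. Genes not called in DMSO are left out of the next count, such as CD274, at 0.035 in DMSO and -1.19 in OICR-9429. Of the named genes called in DMSO, 17 had the opposite sign on the log2 scale in the OICR-9429 pair. T24 was then lower for ASNS (-0.90), CHAC1 (-0.46), ESAM (-1.15), HES7 (-1.05), JUND (-0.49), SESN2 (-1.10), SLC7A11 (-0.045), ULBP1 (-0.44) and VEGFA (-0.78), and higher for COL6A1 (0.19), CTSB (0.12), ID2 (0.091), ITGA2 (0.51), PLAU (1.29), SMAD3 (1.33), TGM2 (1.25) and VIM (0.032). The cause was not tested. At these depths a gene with 0 reads could still hold up to 3.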
